A study of Homo sapiens with 18 samples.

Results

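The proteasome subunit genes were the genes whose symbols in the count tables consist of PSMA, PSMB, PSMC, PSMD or PSME followed by digits. Of 23686 genes in the tables, 43 matched. They comprised 7 alpha subunits (PSMA1 to PSMA7) and 7 constitutive beta subunits (PSMB1 to PSMB7) of the 20S core, 5 immunoproteasome genes (PSMB8, PSMB9, PSMB10, PSME1 and PSME2), 6 ATPases (PSMC1 to PSMC6) and 14 non-ATPase genes (PSMD1 to PSMD14) of the 19S regulatory particle, 2 other activators (PSME3 and PSME4), and 2 subunits known from single tissues (PSMA8 of the testis and PSMB11 of the thymus). In each cell line 42 of the 43 passed the filter on low counts, and PSMB11 did not.

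RNA was sequenced from 2 established human diffuse large B-cell lymphoma lines. OCI-Ly1, of the germinal-centre B-cell type, was grown in IMDM, and TMD8, of the activated B-cell type, was grown in RPMI medium, both with 10% FBS and antibiotics. Each line received JIB-04, a small-molecule inhibitor of Jumonji-type histone demethylases, at 150 nM or at 500 nM, or the vehicle alone (0.01% DMSO), for a time that is not given in the sources used here. Each of the 6 groups had 3 libraries made in technical triplicate from ribosome-depleted total RNA, so p-values measure only the spread between these libraries, which may be technical.

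Total estimated counts ran from 17579732 to 32651115 per library for OCI-Ly1 and from 9550092 to 20509500 in TMD8, where the mean total fell with dose. All 5 B-cell markers (CD79A among them) were at 1 CPM (counts scaled to a common library total) or more in every group. Their summed level ran from 1220 to 1272 CPM in OCI-Ly1 DMSO and from 1047 to 1083 CPM at 500 nM. In TMD8 it ran from 2657 to 2834 CPM in DMSO and from 2234 to 2280 CPM at 500 nM. Within the OCI-Ly1 sum the means of CD79A (194 and 215 CPM) and PAX5 (98.8 and 117 CPM) were higher at 500 nM. Those of CD79B, MS4A1 and CD22 were lower. In TMD8 the means of CD79A (377 and 395 CPM) and CD79B (182 and 220 CPM) were higher at 500 nM. Those of MS4A1, PAX5 and CD22 were lower. Of 5 germinal-centre markers, LMO2 and SERPINA9 were under 1 CPM in OCI-Ly1 DMSO. Both went against the line types, at 55.1 and 22.5 CPM in TMD8 DMSO. MME, BCL6 and MYBL1 were at 374, 215 and 59.9 CPM in OCI-Ly1 DMSO and 0.124, 46.3 and 6.33 CPM in TMD8 DMSO. The sum of the 5 was 638 to 666 CPM in OCI-Ly1 DMSO and 127 to 136 CPM in TMD8 DMSO. In OCI-Ly1 at 500 nM it was 530 to 549 CPM. There the mean of BCL6 was higher (232 CPM), and LMO2 and SERPINA9 were at 1.08 and 0.261 CPM. The sum of 5 activated-type markers was 4074 to 4370 CPM in TMD8 DMSO and 2762 to 2782 CPM at 500 nM, and 320 to 350 CPM and 532 to 563 CPM in OCI-Ly1. Within the TMD8 sum the means of TNFRSF13B (78.1 and 96.9 CPM) and IL16 (83.6 and 114 CPM) were higher at 500 nM. Those of IRF4, BATF and CCND2 were lower. Within the OCI-Ly1 sum the mean of IRF4 was 230 CPM in DMSO and 441 CPM at 500 nM. The means of BATF and TNFRSF13B were also higher there, that of IL16 was lower (84.8 and 81.3 CPM), and CCND2 was under 1 CPM. In DMSO the IL16 libraries of the lines overlapped. Of 8 markers of other cells, CD3E, CD2, CD14 and HBB were under 1 CPM in all groups, while the summed level of the 8 in TMD8 was 7.87 to 10.2 CPM in DMSO and 36.4 to 38.0 CPM at 500 nM, of which COL1A1 was at least 29.4 CPM. Whether these marker shifts have a part in the results below was not tested. Short noncoding RNAs took 23.97% to 33.5% of all TPM (length-scaled transcript abundance within a library) in OCI-Ly1 libraries, and 56.7% to 76.4% in those of TMD8, highest at 500 nM, so levels were compared between groups as CPM scaled by edgeR's TMM method, and TPM was used to order genes or to form ratios within a library and, between groups, only in alternatives to the main test.

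The proteasome degrades proteins that carry ubiquitin chains. Its barrel-shaped 20S core is built of alpha rings that gate the entrance and beta rings that hold the proteolytic sites, and the 19S particle recognizes ubiquitin, removes it and unfolds the substrate with its ATPase ring. In lymphoid and interferon-exposed cells the catalytic subunits PSMB6, PSMB7 and PSMB5 can be replaced by PSMB9, PSMB10 and PSMB8, and the PSME1 and PSME2 activator can dock on the core, which changes the peptides supplied to MHC class I. When proteasome capacity is short, the transcription factor NFE2L1 is released from the endoplasmic reticulum and raises many subunit genes together through antioxidant response elements, while PSMB8, PSMB9, PSMB10, PSME1 and PSME2 also respond to interferon, in part through IRF1.

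Promoter windows from RefSeq (GRCh38.p14, 250 bases before to 50 after a start site) were found for 38 members, 45 windows in all. Because most members moved in the same direction at 500 nM, these windows were searched on both strands for the letters of the promoter elements given below. The antioxidant response element, searched as TGACNNNGC, was in 13 of 45 windows (28.9%), against 13.3% of all 35116 windows. The interferon-stimulated response element core GAAANNGAA was in 7 windows (15.6%, against 8.11%), the CCAAT box in 19 (42.2%, against 34.6%) and the E-box CACGTG in 3 (6.67%, against 7.26%). A match is a description of letters and not a bound site. The 4 stretches below show, 5′ to 3′ with matches in capitals, the upstream bases outside any GENCODE v29 exon of PSMD1 and PSMA3, which had the largest falls in OCI-Ly1, of PSMB9, which lies head to head with TAP1, and of PSMD9, whose response differed most between the lines but for PSME2.
PSMD1 (chr2:231056687-231056863, plus strand, no match in this stretch): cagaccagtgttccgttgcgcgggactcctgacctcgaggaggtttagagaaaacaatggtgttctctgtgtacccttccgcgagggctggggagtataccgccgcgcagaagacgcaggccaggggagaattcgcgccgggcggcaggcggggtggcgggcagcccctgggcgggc
PSMA3 (chr14:58244663-58244830, plus strand, CCAAT boxes): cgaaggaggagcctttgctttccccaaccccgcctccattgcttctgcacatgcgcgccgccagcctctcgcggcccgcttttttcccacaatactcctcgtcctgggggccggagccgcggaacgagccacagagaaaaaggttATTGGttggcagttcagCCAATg
PSMB9 (chr6:32854012-32854147, plus strand, antioxidant response element): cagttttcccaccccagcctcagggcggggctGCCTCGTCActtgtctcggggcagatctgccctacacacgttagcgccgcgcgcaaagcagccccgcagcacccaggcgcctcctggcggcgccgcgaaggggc
PSMD9 (chr12:121888610-121888730, plus strand, antioxidant response elements with an E-box between them): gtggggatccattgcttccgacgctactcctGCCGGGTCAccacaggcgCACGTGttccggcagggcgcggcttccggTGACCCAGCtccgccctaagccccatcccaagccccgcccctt

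For matches outside such exon-free upstream stretches, 30 bases around the match are shown. PSMA4 had the largest fall in TMD8, PSME2 the largest difference between the lines, and PSMB8, PSMB10, PSME2 and TAP1 show the interferon element. That element also matched in windows of PSME1 and of the constitutive PSMB4, PSMC2 and PSMA4, but in no window of PSMB9. The TAP1 match shown last lies between the starts of TAP1 and PSMB9, upstream of the PSMB9 window. The absence of a PSMB9 match therefore depends on the window length of 250 bases before the start.
PSMA4, antioxidant response element (chr15:78540650-78540679, plus strand): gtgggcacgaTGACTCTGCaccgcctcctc
PSME2, antioxidant response element (chr14:24146766-24146795, minus strand): ccctggactgTGACCCAGCcagcaccgcct
PSME2, interferon element (chr14:24146619-24146648, minus strand): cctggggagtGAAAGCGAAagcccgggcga
PSMB10, interferon element (chr16:67936852-67936881, minus strand): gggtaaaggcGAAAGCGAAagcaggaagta
PSMB8, interferon element (chr6:32844031-32844060, minus strand): atctgtggctTTCGCTTTCacttcctcctc
TAP1, interferon element (chr6:32853812-32853841, minus strand): cgctttcgatTTCGCTTTCccctaaatggc

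With the vehicle alone most members were at a higher level in OCI-Ly1 than in TMD8. The members took 0.797% ± 0.0152 (SD, n = 3) of counts in OCI-Ly1 DMSO and 0.433% ± 0.00622 in TMD8 DMSO. In a fit of all 18 libraries, 34 of 42 members were higher in OCI-Ly1 and 4 were lower (edgeR's quasi-likelihood test, adjusted p under 0.05), with a median log2 difference of 0.83. Over all genes tested 37.8% were called higher and 39% lower, with a median of -0.02. All 14 core alpha and constitutive beta genes were higher in OCI-Ly1, among them PSMB1, an inner-ring beta subunit without a proteolytic site (log2 difference 2.37 ± 0.07, SE), whereas PSMB10, the immunoproteasome trypsin-like subunit, and PSME3, a nuclear activator, were lower (-0.93 ± 0.09 and -0.94 ± 0.06); PSMB1 and PSME3 were picked after their values were seen. The other two lower genes were PSMD5 and PSMD12. On the log2(TPM + 1) scale the split was 40 higher and 0 lower, on a scale where the median of all genes shifted by 0.61, so the sign for the lower members depends on the scale. Line and culture medium cannot be told apart in this comparison.

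Within each line's DMSO libraries, where length-scaled TPM orders the genes, PSMB4 (466 ± 19.8 TPM, SD, n = 3), PSMB1 (452 ± 50.7) and PSMB3 (413 ± 22.0), all constitutive beta subunits, led in OCI-Ly1. The libraries of PSMB1 overlapped with those of both neighbours in that order. In TMD8 the order opened with PSME2 (142 ± 13.7 TPM), PSMB4 (128 ± 13.4) and PSMB3 (123 ± 22.3), whose libraries overlapped. PSMB11 was last in both lines, after PSMD5 in OCI-Ly1 and PSMA8 in TMD8. PSMA8 was at 35.7 ± 2.72 CPM in OCI-Ly1 DMSO and 2.11 ± 0.405 CPM in TMD8 DMSO when all libraries were scaled together, and PSMB11 had at most 2 estimated counts in any library, under the floor of 3 counts, so no fold is given for it.

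At 500 nM most members were lower than in DMSO in both lines, and at 150 nM in TMD8 alone were any called. In OCI-Ly1 at 150 nM, 0 of 42 members passed the test in either direction, against 0.141% of all genes called lower and 0.748% called higher. At an unadjusted p under 0.05, 2 members were lower and 0 higher, where 4.64% and 5.51% of all genes were, and DESeq2 also called 0. The median log2 change was -0.05, and the summed CPM of all members was 97.1% ± 1.32 (SD, n = 3) of the DMSO mean. The largest change was that of PSMB8 (-0.23 ± 0.06, SE, adjusted p = 0.11), the immunoproteasome chymotrypsin-like subunit.

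In OCI-Ly1 at 500 nM, 39 of 42 members fell and 0 rose, with a median log2 change of -0.40 (-24.3%). Over all genes tested, 25.9% were lower and 27.7% higher, with a median of -0.00. In 39 members all 3 treated libraries were below all 3 DMSO libraries, which held for 29.3% of all genes. The summed CPM was 75.4% ± 0.754 (SD, n = 3) of the DMSO mean. Against 150 nM, 38 members were lower and 0 higher (background 21.1% and 25.1%). Where TPM was rescaled without the short noncoding RNAs, an alternative chosen after seeing the data in which the median of all genes shifted to 0.22, the counts against DMSO were 25 lower and 3 higher and those against 150 nM were 19 lower and 3 higher; the members' median stayed below that of all genes (-0.14 and -0.12, against 0.22 and 0.20).

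In TMD8 the fall was present at 150 nM, where 39 of 42 members were lower and 0 higher (background 25% and 19.2%). The median log2 change was -0.34 (-21.0%) beside 0.01 for all genes. The count of 39 became 31 with library size only and 29 where TPM was rescaled without short noncoding RNAs. The members' median was then -0.25 and -0.20, beside 0.097 and 0.13 for all genes. At 500 nM 41 were lower and 0 higher (background 30.7% and 29.9%), with a median of -0.57 (-32.5%) beside 0.04, and in 41 members the libraries did not overlap with those of DMSO (33.3% of all genes). The summed CPM was 78.4% ± 4.31 (SD, n = 3) of the DMSO mean at 150 nM and 66.7% ± 0.761 at 500 nM. Between the doses 36 members were lower at 500 nM and 0 higher (background 15% and 13.7%). That last count fell to 19 when replicate 1 of the 150 nM group was left out and to 23 without replicate 3 of the 500 nM group. In TMD8 all 42 tested members had a lower point estimate at 500 nM than at 150 nM, as did 39 of 42 in OCI-Ly1. These comparisons share the DMSO libraries. Over all genes tested between the doses, 7366 of 15363 had a negative estimate in TMD8 and 7716 of 15638 in OCI-Ly1. In bulk RNA, fewer cells of a type and less RNA per cell cannot be told apart.

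**Figure D1:**
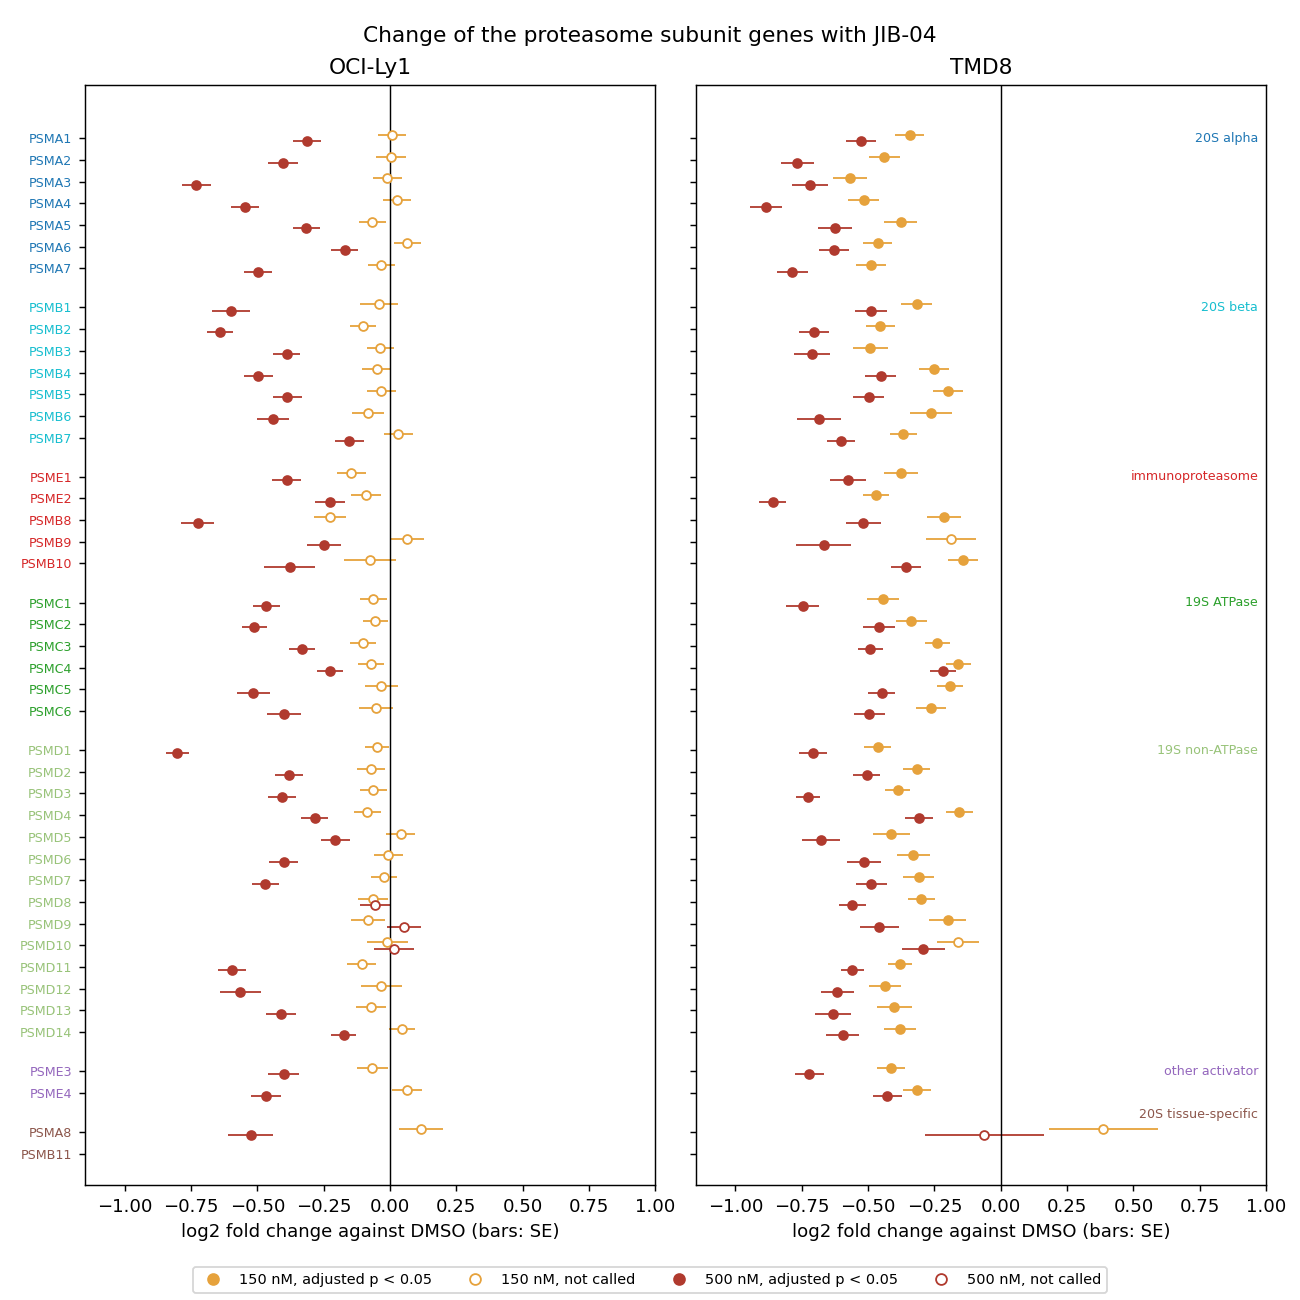
Log2 fold change against DMSO (x axis) with its standard error for each of the 43 genes (y axis, grouped by class), at 150 nM (orange) and 500 nM (red) in both lines; filled points have an adjusted p under 0.05, and PSMB11 was not tested. In OCI-Ly1 the 150 nM points lie near 0 and 39 of the 500 nM points are filled to the left, and in TMD8 both doses lie to the left, except PSMA8 at 150 nM.

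**Figure D2:**
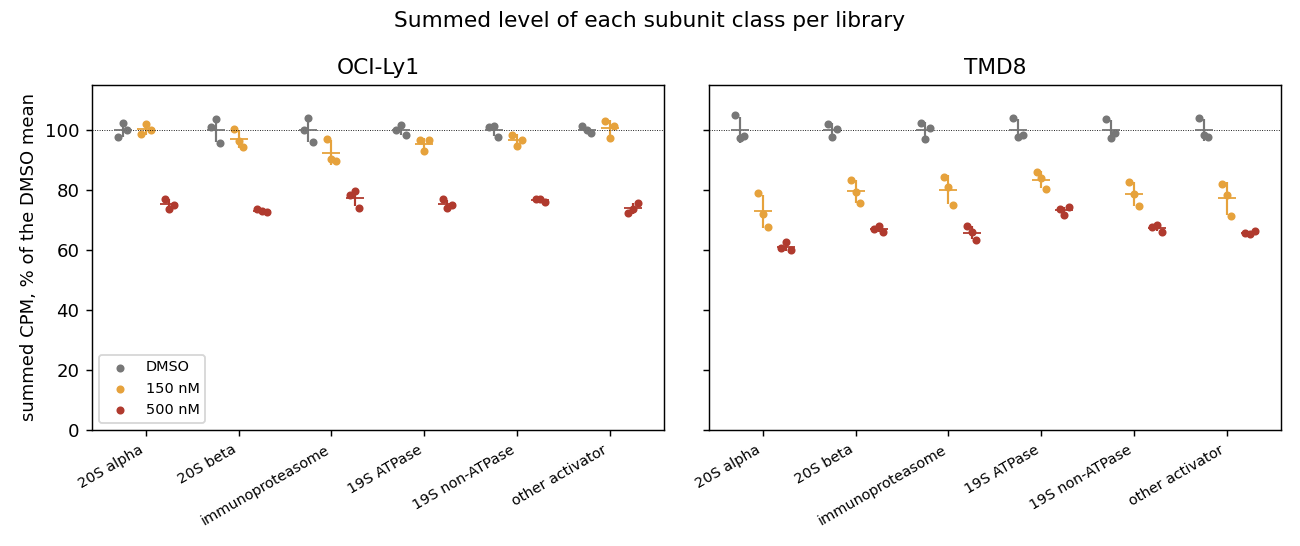
Summed CPM of 6 subunit classes as a percentage of the DMSO mean of the same line (y axis), for each library (points) with the group mean and SD. At 500 nM the class means lie between 73.1% and 77.3% in OCI-Ly1 and between 61.1% and 73.2% in TMD8.

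At 500 nM the 5 immunoproteasome genes fell along with the constitutive ones. All 5 were lower in both lines. Their median log2 change was -0.38 in OCI-Ly1 and -0.58 in TMD8, beside -0.44 and -0.60 for the 7 constitutive beta genes. At 150 nM in TMD8, 4 of the 5 were called lower (25% of all genes), with a median of -0.21. The medians there were -0.46 for alpha, -0.32 for beta, -0.25 for ATPase and -0.35 for non-ATPase genes. In OCI-Ly1 at 150 nM 0 of the 5 were called, and their median was -0.09, beside -0.04 for beta genes. In 3 of the 5 all treated libraries there were below DMSO, as in 1140 of 15638 genes. Differences between classes were not tested.

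PSMB8 was at 86.2, 86.2 and 78.6 CPM in the OCI-Ly1 DMSO libraries, at 73.8, 70.2 and 70.2 CPM at 150 nM and at 48.1, 53.2 and 50.7 CPM at 500 nM. In TMD8 it was at 50.5, 54.1 and 56.9 CPM in DMSO, 48.3, 47.1 and 44.3 CPM at 150 nM and 38.4, 39.4 and 34.8 CPM at 500 nM. No library at 500 nM overlapped with DMSO in either line, and the log2 changes were -0.72 ± 0.06 (SE, adjusted p = 2.4e-08) and -0.52 ± 0.07 (adjusted p = 2.3e-06).

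PSMB9, which takes the place of PSMB6 in the immunoproteasome, was at 45.5, 43.8 and 42.5 CPM in OCI-Ly1 DMSO and at 37.8, 37.9 and 35.2 CPM at 500 nM. In TMD8 the DMSO libraries held 15.4, 13.8 and 16.4 CPM and the 500 nM libraries 10.3, 9.13 and 9.31 CPM. All treated libraries were below their controls, with log2 changes of -0.25 ± 0.06 (adjusted p = 0.0032) in OCI-Ly1 and -0.67 ± 0.10 (adjusted p = 2.2e-05) in TMD8. The OCI-Ly1 call of PSMB9 was lost on the log2(TPM + 1) scale (limma, adjusted p = 0.094), and its sign turned where TPM was rescaled without short noncoding RNAs (0.02, against 0.22 for the median of all genes).

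PSMB10 had the smallest fall of the 5 immunoproteasome genes in TMD8. It was at 55.5, 60.4 and 46.9 CPM in OCI-Ly1 DMSO and at 44.2, 40.6 and 40.1 CPM at 500 nM, a log2 change of -0.38 ± 0.10 (adjusted p = 0.0032). In TMD8 it went from 90.0, 94.9 and 98.7 CPM to 75.7, 73.3 and 72.3 CPM, a log2 change of -0.36 ± 0.06 (adjusted p = 3.5e-05). Both sets of treated libraries lay below their controls. The OCI-Ly1 call of PSMB10 was lost on the log2(TPM + 1) scale (limma, adjusted p = 0.058), and without short noncoding RNAs it was lost in OCI-Ly1 (-0.11, adjusted p = 0.35) and in TMD8 (-0.13, adjusted p = 0.051).

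PSME1 and PSME2 encode the alpha and beta subunits of the interferon-inducible 11S activator, also called PA28. PSME1 was at 156.1, 161.4 and 153.6 CPM in OCI-Ly1 DMSO and 122.1, 122.7 and 115.005 CPM at 500 nM (log2 change -0.39 ± 0.05), and at 151.7, 128.3 and 130.1 CPM in TMD8 DMSO and 96.4, 91.3 and 86.5 CPM at 500 nM (-0.58 ± 0.07). PSME2 was at 156.3, 167.3 and 156.6 CPM in OCI-Ly1 DMSO, and 138.3, 143.1 and 129.0 CPM at 500 nM. In TMD8 PSME2 was at 139.9, 133.4 and 138.6 CPM in DMSO, 104.3, 100.8 and 93.1 CPM at 150 nM, and 76.1, 76.2 and 74.8 CPM at 500 nM. In DMSO the difference in PSME2 between the lines did not pass the test (log2 difference 0.10 ± 0.05, adjusted p = 0.11). Its change at 500 nM was -0.23 ± 0.06 in OCI-Ly1 (adjusted p = 0.0025) and -0.86 ± 0.05 in TMD8 (adjusted p = 1.4e-10). In OCI-Ly1 the PSME2 call was lost on the log2(TPM + 1) scale (limma, adjusted p = 0.21), and its sign turned without short noncoding RNAs (0.04).

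Ratios within a library, which do not depend on scaling between libraries, compared each immunoproteasome catalytic gene with the constitutive gene whose place its product takes. PSMB8 made up 39.0% ± 0.243 (SD, n = 3) of the summed PSMB8 and PSMB5 TPM in OCI-Ly1 DMSO, 36.2% ± 0.271 at 150 nM and 33.5% ± 0.898 at 500 nM, with no overlap between the 3 groups. In TMD8 the PSMB8 share was 42.2% ± 0.721, 42.0% ± 0.628 and 42.0% ± 1.45, within the spread of the libraries. PSMB9 made up 18.1% ± 0.270 of the PSMB9 and PSMB6 pair in OCI-Ly1 DMSO, 19.7% ± 0.907 at 150 nM and 20.2% ± 0.809 at 500 nM. Both doses lay above DMSO without overlap, and they overlapped with each other. In TMD8 the PSMB9 share was 21.3% ± 2.14, 22.1% ± 0.427 and 21.4% ± 2.78. The PSMB10 share of the PSMB10 and PSMB7 pair differed most between the lines, at 22.6% ± 2.02 in OCI-Ly1 DMSO and 55.1% ± 1.46 in TMD8 DMSO. At 150 nM it was 21.2% ± 2.60 in OCI-Ly1, overlapping with DMSO, and 59.0% ± 0.834 in TMD8, above all DMSO libraries. At 500 nM it was 19.9% ± 0.4604 in OCI-Ly1, below all DMSO libraries, and 59.3% ± 0.715 in TMD8, above all DMSO libraries. In both lines the 500 nM libraries overlapped with those at 150 nM. With 3 libraries against 3, an exact permutation test cannot give a p below 0.10, so these shares carry no test.

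**Figure D3:**
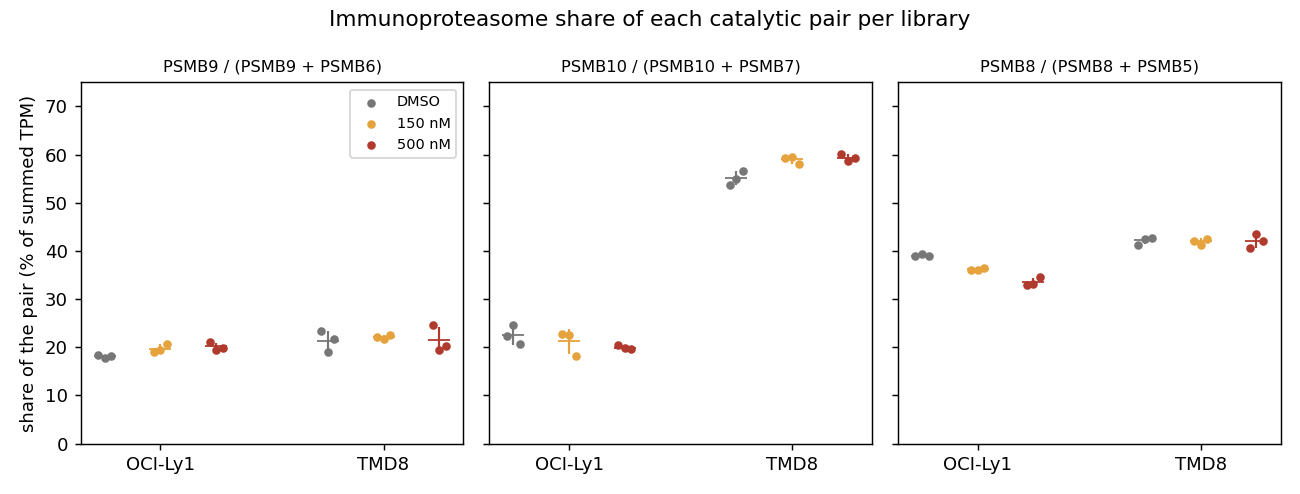
Share of each immunoproteasome catalytic gene in the summed TPM of its pair (y axis, percent), per library (points) with the group mean and SD, for DMSO (grey), 150 nM (orange) and 500 nM (red). The PSMB8 share steps down in OCI-Ly1 from 39.0% to 33.5% and is between 42.0% and 42.2% in TMD8, and the PSMB10 share in DMSO is 22.6% in OCI-Ly1 and 55.1% in TMD8.

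Of the constitutive catalytic genes, PSMB5, the chymotrypsin-like subunit that bortezomib binds, was at 140.7, 138.3 and 128.5 CPM in OCI-Ly1 DMSO and 101.3, 106.1 and 104.3 CPM at 500 nM, and at 78.7, 80.1 and 83.4 CPM in TMD8 DMSO and 61.1, 55.6 and 54.5 CPM at 500 nM. The groups did not overlap, and the log2 changes were -0.39 ± 0.06 and -0.50 ± 0.06. PSMB6, the caspase-like subunit, went from 157.8, 157.3 and 149.2 CPM to 110.1, 121.8 and 110.6 CPM in OCI-Ly1 (-0.44 ± 0.06), while in TMD8 it went from 39.6, 45.8 and 46.3 CPM to 24.5, 29.6 and 28.4 CPM (-0.68 ± 0.08). PSMB6 shared 7.19% of its 31-base stretches with other genes of the tables, and 13 members, PSMB8, PSMB9, PSMD1, PSME1 and PSME2 among them, had an exon that overlaps another gene of the tables, 12 of them on the opposite strand; whether the counting used strand is not given in the sources used here.

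PSMB7, the trypsin-like subunit, went in OCI-Ly1 from 194.8, 186.6 and 182.3 CPM to 173.9, 166.4 and 166.6 CPM. Its log2 change of -0.15 ± 0.05 (adjusted p = 0.023) lost its call without DMSO replicate 1 (adjusted p = 0.076), without 500 nM replicate 2 (0.066) and without 500 nM replicate 3 (0.074), and on the library-size and log2(TPM + 1) scales, and its sign turned without short noncoding RNAs (0.11). In TMD8 PSMB7 fell from 78.3, 78.4 and 76.3 CPM to 50.8, 52.1 and 50.4 CPM, a log2 change of -0.60 ± 0.05 (adjusted p = 1.9e-08).

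All 7 alpha genes fell at 500 nM in both lines, with a median log2 change of -0.40 in OCI-Ly1 and -0.72 in TMD8. In OCI-Ly1 the PSMA6 call was lost with library size only (edgeR, adjusted p = 0.15) and on the log2(TPM + 1) scale (limma, adjusted p = 0.66). Its sign turned without short noncoding RNAs (0.093), where PSMA1 and PSMA5 lost their calls (limma, adjusted p = 0.43 and 0.35). PSMA4 had the largest fall of any member in TMD8, from 128.2, 116.8 and 119.0 CPM in DMSO to 90.9, 86.9 and 77.4 CPM at 150 nM and 64.9, 67.3 and 64.6 CPM at 500 nM. That is -45.9%, or -0.89 ± 0.06 on the log2 scale (adjusted p = 8.4e-10), with no overlap between the 3 groups. In OCI-Ly1 PSMA4 went from 267.3, 282.4 and 304.5 CPM to 199.5, 197.2 and 188.0 CPM at 500 nM (-0.55 ± 0.05).

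PSMA7 went from 155.8, 144.5 and 144.9 CPM in TMD8 DMSO to 84.8, 88.0 and 85.5 CPM at 500 nM (-0.78 ± 0.06). In OCI-Ly1 it went from 266.2, 268.7 and 243.0 CPM to 186.7, 178.9 and 185.5 CPM (-0.50 ± 0.05). PSMA3 fell in both lines, from 137.7, 143.5 and 141.3 CPM to 83.9, 84.4 and 86.3 CPM in OCI-Ly1 (-0.73 ± 0.05), while in TMD8 it went from 120.9, 102.9 and 111.0 CPM to 65.6, 68.1 and 69.9 CPM (-0.72 ± 0.07). The difference between the lines' changes in PSMA3 was 0.02 ± 0.09 (adjusted p = 0.89), which does not show that they are equal.

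In the 19S particle, all 6 ATPase genes fell at 500 nM in both lines, with a median log2 change of -0.43 in OCI-Ly1 and -0.48 in TMD8. In OCI-Ly1 the PSMC4 call was lost on the log2(TPM + 1) scale (limma, adjusted p = 0.11). Its sign turned without short noncoding RNAs (0.039), as it did in TMD8 (0.0071). The OCI-Ly1 calls of PSMC3 and PSMC6 were also lost without short noncoding RNAs (limma, adjusted p = 0.16 and 0.085). Of the 14 non-ATPase genes, 11 fell in OCI-Ly1 and 14 in TMD8, with medians of -0.39 and -0.56. PSMD1, the large scaffold subunit of the base, had the largest fall of any member in OCI-Ly1: it was at 406.7, 405.5 and 422.1 CPM in DMSO, at 395.8, 388.2 and 409.9 CPM at 150 nM and at 236.1, 234.9 and 237.5 CPM at 500 nM. The fall at 500 nM was -42.6% (log2 change -0.80 ± 0.04, adjusted p = 7.4e-11), and the 150 nM libraries overlapped with DMSO. In TMD8 PSMD1 went from 196.0, 178.6 and 182.2 CPM to 115.7, 115.1 and 110.0 CPM (-0.71 ± 0.05).

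The 3 genes that did not pass the test in OCI-Ly1 at 500 nM, singled out after their values were seen, were PSMD8, a lid subunit, and PSMD9 and PSMD10, chaperones that help assemble the base and leave the finished particle. PSMD9 was at 89.0, 90.6 and 78.4 CPM in OCI-Ly1 DMSO and 88.9, 91.2 and 87.6 CPM at 500 nM, a log2 change of 0.05 ± 0.06 (adjusted p = 0.5). In TMD8 PSMD9 went from 42.8, 43.7 and 43.2 CPM to 33.5, 31.3 and 29.2 CPM (-0.46 ± 0.07, adjusted p = 3.3e-05). PSMD9 shared 13.8% of its 31-base stretches with other genes of the tables, most with WDR66, so its level is uncertain. The OCI-Ly1 changes of PSMD8 and PSMD10 were -0.06 ± 0.06 and 0.02 ± 0.08, and those in TMD8 were -0.56 ± 0.05 and -0.29 ± 0.08. The OCI-Ly1 libraries of PSMD8 were at 227.2, 226.5 and 206.3 CPM in DMSO and 218.2, 213.9 and 203.0 CPM at 500 nM, which overlapped. The sign in OCI-Ly1 turned with the scaling for all 3 of these genes. PSMD9 was called higher there on the log2(TPM + 1) scale (limma, 0.19, adjusted p = 0.019), and without short noncoding RNAs so were PSMD8 (0.21, adjusted p = 0.0021) and PSMD10 (0.28, adjusted p = 0.0062), whose TMD8 call was lost (-0.07, adjusted p = 0.34). PSMD5, another base chaperone, had log2 changes of -0.21 ± 0.05 (OCI-Ly1) and -0.68 ± 0.07 (TMD8); the OCI-Ly1 call was lost with library size only (adjusted p = 0.069) and on the log2(TPM + 1) scale (adjusted p = 0.34).

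Both other activators, PSME3 and PSME4, fell at 500 nM in both lines: the log2 changes were -0.40 ± 0.06 in OCI-Ly1 and -0.72 ± 0.05 in TMD8 for PSME3, and -0.47 ± 0.06 and -0.43 ± 0.05 for PSME4. PSMA8, the alpha subunit of the testis, was measured well in OCI-Ly1, at 36.5, 34.7 and 40.3 CPM in DMSO and 28.8, 23.3 and 25.4 CPM at 500 nM (-0.52 ± 0.08, adjusted p = 4.8e-05). In TMD8 it had 19 to 51 estimated counts per library, and its change of -0.06 ± 0.23 at 500 nM was not detectable at this depth. At 150 nM its log2 change in TMD8 was 0.39, which was not called. Its 150 nM libraries lay above all DMSO libraries there, as in 3551 of 15363 genes. The change from 150 nM to 500 nM was -0.45, also not called.

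At 500 nM 38 members were lower in both lines. This is the smallest overlap possible with 39 called in OCI-Ly1 and 41 in TMD8 of the same 42 tested genes. It is therefore no measure of agreement between the lines. The point estimate was lower in TMD8 for 30 members and lower in OCI-Ly1 for 12, each line fitted alone. In the fit of 18 libraries it was lower in TMD8 for 33 of 42 members and for 8856 of 16604 genes. The test of the difference between the lines, the OCI-Ly1 change minus the TMD8 change, called 27 members at 150 nM and 21 at 500 nM, each time with the larger fall in TMD8, and 0 in the other direction. Over all genes 15% and 28.2% were called in that direction at the 2 doses, and 8.33% and 18.1% in the other. The median difference was 0.30 at 150 nM, beside -0.00 for all genes, and 0.20 at 500 nM, beside 0.05. On the log2(TPM + 1) scale 41 members were called at 500 nM, with the median of all genes at 0.38. By class, the difference at 500 nM was called in 6 of 7 alpha, 3 of 7 beta, 2 of 5 immunoproteasome, 2 of 6 ATPase and 7 of 14 non-ATPase genes.

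The largest of these differences were those of PSME2 (0.66 ± 0.08, adjusted p = 2.1e-07) and PSMD9 (0.54 ± 0.10, adjusted p = 1.0e-04). PSMB9 (0.45 ± 0.12) and PSMB7 (0.48 ± 0.08) also differed, while PSMB8 and PSMB10 did not pass the test (-0.18 ± 0.09, adjusted p = 0.12, and 0.01 ± 0.12, adjusted p = 0.97). The 13 members with an antioxidant response element match had a median log2 change at 500 nM of -0.39 in OCI-Ly1 and -0.67 in TMD8, and the 24 tested members with windows but no match had -0.40 and -0.52, ranges that overlapped.

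**Figure D4:**
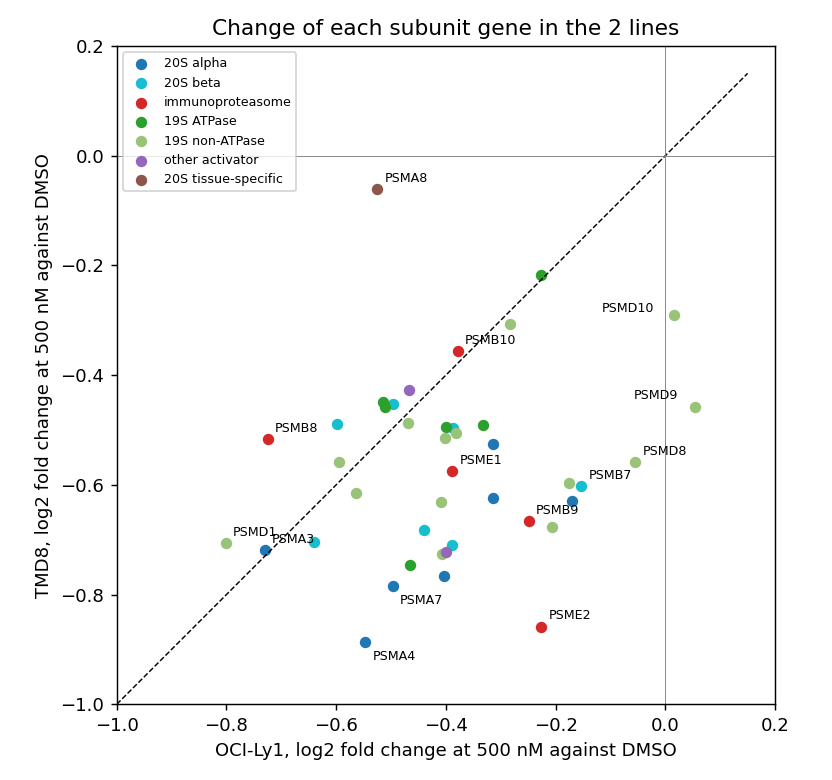
Log2 fold change at 500 nM against DMSO in OCI-Ly1 (x axis) and TMD8 (y axis) for the 42 tested genes, coloured by class, with the dashed line marking equal change. The 30 points below the line have the lower estimate in TMD8, PSME2 farthest from it, and PSMD8, PSMD9 and PSMD10 lie near 0 on the x axis only.

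Genes that build or accompany the proteasome but do not match the symbol pattern were read from a list of 14. At 500 nM 5 fell and 1 rose in OCI-Ly1, and 13 fell and 0 rose in TMD8. For this list and the 3 that follow, the shares of all genes at that dose were 25.9% lower and 27.7% higher in OCI-Ly1 and 30.7% and 29.9% in TMD8. SHFM1, the small lid subunit also named SEM1, fell from 148.4, 155.1 and 152.3 CPM to 118.2, 112.1 and 108.6 CPM in OCI-Ly1, the largest fall of the list there (-0.43 ± 0.05). PSMG1, a chaperone that starts the alpha ring, was at 75.8, 83.6 and 79.6 CPM in OCI-Ly1 DMSO and 87.6, 82.9 and 82.8 CPM at 500 nM (0.09 ± 0.07, adjusted p = 0.30), and it fell from 50.4, 44.0 and 43.6 CPM to 23.6, 26.6 and 24.7 CPM in TMD8 (-0.88 ± 0.08, adjusted p = 2.4e-08). In OCI-Ly1 PSMG1 was called higher with library size only (0.17, adjusted p = 0.032), on the log2(TPM + 1) scale (0.23, adjusted p = 0.034) and without short noncoding RNAs (0.35, adjusted p = 7.4e-04). Its partner PSMG2 was the member of the list that rose in OCI-Ly1 (0.14 ± 0.05, adjusted p = 0.028), and it fell in TMD8 (-0.35 ± 0.07). The OCI-Ly1 call of PSMG2 was lost with no filter on low counts (adjusted p = 0.074), on centred values (adjusted p = 0.30), without any 1 of the DMSO replicates 1, 2 and 3 (adjusted p = 0.086, 0.06 and 0.073) and without replicate 2 or 3 of the 500 nM group (adjusted p = 0.12 and 0.067). The TMD8 call was lost without short noncoding RNAs (-0.13, adjusted p = 0.05).

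NFE2L1, which encodes the factor that raises subunit genes when the proteasome is inhibited, went the opposite way to the members. It was at 115.3, 102.3 and 110.0 CPM in OCI-Ly1 DMSO, 142.8, 136.3 and 143.9 CPM at 150 nM and 383.7, 370.7 and 348.5 CPM at 500 nM, with no overlap between groups. The log2 changes were 0.37 ± 0.06 at 150 nM (adjusted p = 0.0017) and 1.75 ± 0.06 at 500 nM (adjusted p = 5.1e-14). In TMD8 NFE2L1 was at 126.3, 133.4 and 129.4 CPM, 192.8, 195.8 and 197.6 CPM, and 211.4, 221.0 and 223.5 CPM, with changes of 0.59 ± 0.04 and 0.75 ± 0.04. The rise at 500 nM was larger in OCI-Ly1 (difference 1.03 ± 0.07, adjusted p = 2.9e-11). The mRNA does not show how much processed factor was made.

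Of 10 genes in the NFE2L1 pathway list, 3 rose and 4 fell in OCI-Ly1 at 500 nM, and 6 rose and 4 fell in TMD8. VCP, the ATPase that draws NFE2L1 out of the endoplasmic reticulum, fell from 772.0, 788.9 and 722.0 CPM to 427.5, 436.2 and 417.0 CPM in OCI-Ly1 (-0.83 ± 0.05) and by a log2 change of -0.37 ± 0.05 in TMD8. MAFG, a small Maf protein that pairs with NFE2L1 and NFE2L2 on DNA, rose from 37.1, 38.8 and 38.6 CPM to 88.3, 92.6 and 87.5 CPM in TMD8 (1.23 ± 0.05), and its change in OCI-Ly1 was 0.08 ± 0.07 (adjusted p = 0.36), which was called on the log2(TPM + 1) scale (0.21, adjusted p = 0.036) and without short noncoding RNAs (0.33, adjusted p = 0.0026). Its relative MAFK had the largest fall of the list in TMD8 (-0.55 ± 0.09).

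Of 13 ubiquitin and shuttle genes, 3 rose and 4 fell in OCI-Ly1 and 3 rose and 10 fell in TMD8 at 500 nM. UBA1, the main ubiquitin-activating enzyme, had the largest fall in both lines (-0.55 ± 0.06 and -0.58 ± 0.05). SQSTM1, the autophagy receptor p62, rose from 115.9, 118.4 and 102.2 CPM to 199.8, 182.8 and 183.6 CPM in OCI-Ly1 (0.75 ± 0.07), while in TMD8 it went from 75.5, 79.4 and 76.8 CPM to 170.9, 176.9 and 179.8 CPM (1.19 ± 0.05). ZFAND2A, a stress-induced protein that associates with the proteasome, rose by 0.83 ± 0.13 and 1.08 ± 0.10.

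Of 10 interferon and class I partner genes, 5 rose and 1 fell in OCI-Ly1 at 500 nM and 5 rose and 2 fell in TMD8. IRF1 rose from 20.3, 22.5 and 18.8 CPM to 37.9, 36.1 and 37.2 CPM in OCI-Ly1 (0.86 ± 0.08), while in TMD8 it went from 13.0, 15.6 and 17.7 CPM to 31.7, 31.1 and 33.5 CPM (1.04 ± 0.09). NLRC5, the class I transactivator, rose by 0.68 ± 0.16 in OCI-Ly1, where it was at 3.34 to 6.08 CPM, and by 0.68 ± 0.05 in TMD8; the OCI-Ly1 call was lost on centred values (0.15, adjusted p = 0.10).

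TAP1, a subunit of the peptide transporter, has a start 488 bases from PSMB9 on the opposite strand (GRCh38.p14). It was at 54.8, 53.8 and 47.1 CPM in OCI-Ly1 DMSO and 51.2, 54.4 and 53.7 CPM at 500 nM (0.03 ± 0.07, adjusted p = 0.71), and at 55.5, 52.6 and 56.0 CPM in TMD8 DMSO and 51.8, 54.8 and 51.0 CPM at 500 nM (-0.06 ± 0.06, adjusted p = 0.42). The groups overlapped in both lines, while those of PSMB9 did not; the sign of the TAP1 change turned with the scaling in both lines. In TMD8 TAP1 was called lower on the log2(TPM + 1) scale (-0.40, adjusted p = 0.0023) and on centred values (-0.14, adjusted p = 0.031), and higher without short noncoding RNAs (0.16, adjusted p = 0.0097), as it was in OCI-Ly1 (0.29, adjusted p = 0.0035). The difference between the 2 genes' changes was not tested. TAP2, its partner, did not pass the test in OCI-Ly1 (-0.05 ± 0.07, adjusted p = 0.54; called on centred values, -0.23, adjusted p = 0.044) and fell in TMD8 (-0.55 ± 0.05, adjusted p = 3.6e-08). ERAP2, a peptide-trimming enzyme, had a log2 change of -0.21 ± 0.07 in OCI-Ly1 (adjusted p = 0.025) and 0.49 ± 0.08 in TMD8. The OCI-Ly1 call of ERAP2 was lost with library size only (-0.12, adjusted p = 0.18), on the log2(TPM + 1) scale (adjusted p = 0.56) and without DMSO replicate 1 or 3 (adjusted p = 0.058 and 0.06) or 500 nM replicate 1 or 2 (adjusted p = 0.055 and 0.11), and its sign turned without short noncoding RNAs (0.05). The TMD8 call of ERAP2 was lost on the log2(TPM + 1) scale (0.07, adjusted p = 0.48).

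**Figure D5:**
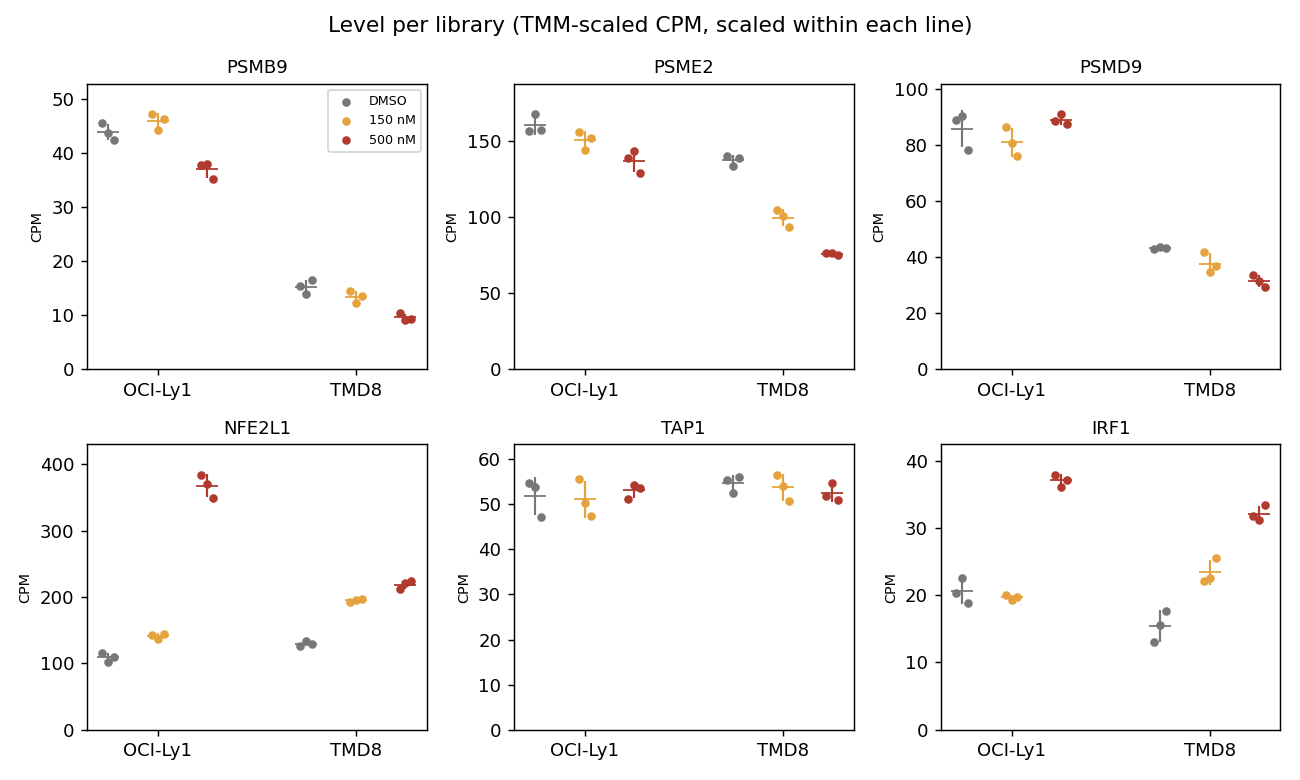
CPM per library (points) with group mean and SD for PSMB9, PSME2, PSMD9, NFE2L1, TAP1 and IRF1, scaled within each line, at DMSO (grey), 150 nM (orange) and 500 nM (red). PSMB9 and PSME2 are lower at 500 nM in both lines, PSMD9 in TMD8, NFE2L1 and IRF1 are higher, and TAP1 overlaps between doses.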

How the data were processed

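Per the submitters' processing notes, kallisto 0.46.0, R 4.3.1, DESeq2 1.40.2 and the hg19 build were used; their roles and the annotation are not given in the sources used here. The deposited tables hold, per gene and library, estimated counts and TPM made by the authors. Estimated counts were rounded and tested with edgeR 4.0.16 (R 4.3.3): TMM scaling, filterByExpr by group, the quasi-likelihood test and Benjamini-Hochberg adjustment over all genes tested in each comparison, called at an adjusted p under 0.05. Each line was fitted with its 9 libraries; line differences and the DMSO baseline came from a fit of all 18. Fold changes are on edgeR's log2 scale with a prior count of 2, and the standard error is the fold change over the root of F. The code was tested on simulated data. Depth per library is given above; arms of 3 libraries limit the precision.

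Members and gene lists were chosen with earlier results of these data known. Values were given for PSMB5 to PSMB10, PSME1, PSME2, NFE2L1, IRF1, NLRC5 and TAP1, for the 3 largest called changes in each direction at 500 nM in each line, for the largest called line difference at 500 nM in each direction and the next one, for members under the filter by counts only, and for the largest called change in each direction per line in each related list. PSMA1, PSMA5, PSMA6, PSMB1, PSMC3, PSMC4, PSMC6, PSMD5, PSMD8, PSMD10, PSMD12, PSMA8, PSME3 and PSME4 were named after their values were seen. Alternatives were DESeq2 1.42.0, library size only, no filter, limma 3.58.1 on log2 TPM scales, a replicate block and left-out libraries. Promoters are from RefSeq GRCh38.p14, and genes of the hg19 tables were joined by symbol. Identity between subunit proteins was not analysed here. One related gene, 1 cell marker and 1 promoter motif are not reported here.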

Additional observations from a re-analysis of the deposited data

Results flagged for a closer look

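The change against DMSO differed between the lines for the results given here, by the test of the difference itself (edgeR's quasi-likelihood test in the fit of 18 libraries, adjusted p under 0.05); each value is the OCI-Ly1 log2 change minus the TMD8 log2 change. Among members, 27 differed at 150 nM and 21 at 500 nM. At 500 nM the difference was 0.66 for PSME2, 0.54 for PSMD9, 0.48 for PSMB7, 0.45 for PSMB9, 0.37 for PSMA4, 0.32 for PSMA7 and 0.27 for PSMB6, each with the larger fall in TMD8.

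Among related genes, the difference was 1.03 for NFE2L1, which rose more in OCI-Ly1, 0.997 for PSMG1, 0.53 for TAP2 and 0.52 for PSMG2. It was -1.12 for MAFG and -0.40 for SQSTM1, each with the larger upward change in TMD8, -0.67 for ERAP2, whose own calls depend on the scaling in both lines, and -0.43 for VCP, which fell further in OCI-Ly1.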

How the results depend on the processing

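Within each line the members' median stayed negative at 500 nM under all alternatives run (-0.14 to -0.49 in OCI-Ly1, -0.34 to -0.94 in TMD8). Thinning to equal depth and TPM without short noncoding RNAs were added after seeing the data. The latter was run within lines only. In OCI-Ly1 it gave 25 lower and 3 higher against DMSO, and 19 lower and 3 higher against 150 nM. In TMD8 it gave 29 lower and 1 higher at 150 nM, 37 lower at 500 nM and 20 lower between the doses. With library size only, 35 were lower in OCI-Ly1 at 500 nM and 31 in TMD8 at 150 nM. On log2(TPM + 1) and log2(TPM + 0.1), 31 and 31 were lower in OCI-Ly1 at 500 nM. One member was called higher in OCI-Ly1 at 500 nM on log2(TPM + 1) and 1 on log2(TPM + 0.1), likewise 1 and 1 against 150 nM, 1 there with library size only, and 1 in TMD8 at 150 nM on centred values. Between lines at 500 nM, 41 members differed on either TPM scale, and 1 in the other direction on centred values. In DMSO, 2 members were lower in OCI-Ly1 with library size only, 0 on either TPM scale and 2 centred. The cause was not tested. The median of all genes at 500 nM moved from -0.00 to 0.22 (OCI-Ly1) and from 0.04 to 0.22 (TMD8) without short noncoding RNAs, and calls over all genes from 4330 higher and 4057 lower to 7822 and 1416, and from 4601 and 4723 to 7324 and 2738.

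Leaving out each library gave 38 to 39 members lower in OCI-Ly1 at 500 nM, 36 to 39 lower and 0 to 1 higher against 150 nM, 32 to 39 in TMD8 at 150 nM, 41 to 41 at 500 nM and 19 to 39 between the doses. Line differences gave 23 to 28 and 17 to 22, and DMSO 32 to 35 higher and 3 to 4 lower. Libraries with the same replicate number were at most weakly correlated (r from -0.05 to 0.15 in OCI-Ly1 and to 0.14 in TMD8, 2 of 9 pairs over 0.1 in each). In both lines the pairs over 0.1 were of DMSO and 150 nM, replicates 1 and 3. With 3 replicates, low r cannot show that the libraries were unpaired. With the replicate block, 39 members were lower in OCI-Ly1 at 500 nM, 39 lower and 1 higher against 150 nM, 39, 41 and 36 lower in TMD8 at 150 nM, at 500 nM and between doses, 29 and 22 differed between lines, and 31 were higher and 4 lower in DMSO.

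Of 1260 values for members at 500 nM against DMSO under alternatives, 33 lost their call, 4 gained one and 23 changed sign, and of 450 for related genes, 20, 12 and 11. In OCI-Ly1 at 500 nM without short noncoding RNAs these were PSMA6 0.093, PSMB7 0.11, PSMB9 0.016, PSMC4 0.039, PSMD5 0.058, PSMD14 0.090, PSME2 0.036, PSMD8 0.21, ERAP2 0.054 and TAP2 0.13. PSMD8 was 0.032 with library size only and 0.083 and 0.083 on the TPM scales, and TAP2 0.036, 6.6e-04 and 6.1e-04. On centred values PSMD9 was -0.033, PSMD10 -0.074, TAP1 -0.059, PSMG1 -6.1e-04 and MAFG -0.018. Without 1 library, PSMD9 ranged from -0.013 to 0.086, PSMD10 from -0.036 to 0.047 and TAP1 from -0.036 to 0.071. In TMD8 PSMA8 was 0.031 with library size only, 0.069 centred, 0.12 without short noncoding RNAs, and -0.21 to 0.055 without 1 library; without short noncoding RNAs PSMC4 was 0.0071 and TAP1 0.16, and TAP1 was 0.036 with library size only.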
